A study of Mus musculus with 6 samples.

Results

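The 296 peaks described here are Bcl6-bound regions of at most 2 kb that lay over 50 kb from every transcription start site (TSS) that the authors' gene list ties to them. They are 296 of 3878 peaks, or 7.63%, and were picked by peak width and by the smallest distance in that list, both of which come from the same pooled experiment as the enrichment values. The fold enrichment, tag counts and scores of these peaks are therefore given as descriptions, with no test. They are called narrow far-distal peaks here, where distal refers to the authors' list of start sites.

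Bcl6 is a zinc finger protein of the BTB family that represses transcription by recruiting corepressors such as Bcor. It is best known from germinal centre B cells, and in the developing mouse cortex it promotes the change from dividing progenitor to neuron. Sites far from a promoter can act as enhancers or silencers of a distant gene, and the nearest start site need not belong to the gene that a site controls.

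Chromatin immunoprecipitation and sequencing (ChIP-seq) was done on cortical progenitors grown from A2 lox.Cre Bcl6 mouse embryonic stem (ES) cells, which carry a Bcl6 transgene switched on by doxycycline through a tetracycline-inducible promoter. The Bcl6 antibody was used for 3 ChIP libraries, and 3 further libraries were input DNA. Both groups came from cells at differentiation day 12 given 1 µg/ml doxycycline for 24 h, after a stretch of culture with cyclopamine, a hedgehog pathway inhibitor. The authors pooled the 3 libraries of each kind before calling peaks, so every value below is a single value with no replicate spread, and no library can be left out. All these cells were given doxycycline to induce the transgene, and the level of Bcl6 reached was not measured here. The line is a single one, and cells without induction were not analysed here. The files used here hold no expression values, so the identity of the cells could not be checked against marker genes. The peak caller kept 11718276 of 56836596 ChIP tags and 5048582 of 12808138 input tags after removing duplicates. Narrow far-distal peaks covered 325 kb and held 14981 of the 297616 tags in all peaks (5.03%).

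The peak of highest fold among all 3878 was a narrow far-distal one, at chr19:23075226-23076695 (mm10), 65.3 kb upstream of the listed TSS of Klf9. Klf9 encodes a Krüppel-like transcription factor that responds to glucocorticoid and thyroid hormones. The promoter table of RefSeq (GRCm38.p6, the same build as mm10) places a start of the long non-coding RNA (lncRNA) C330002G04Rik inside this peak. The 250 bases before that start, at chr19:23075907-23076156 on the minus strand, are shown because they hold the summit of the peak, at base 125. Capitals mark matches of 9 bases to the published Bcl6 consensus TTCCTAGAA with at most 1 mismatch, on either strand.
C330002G04Rik: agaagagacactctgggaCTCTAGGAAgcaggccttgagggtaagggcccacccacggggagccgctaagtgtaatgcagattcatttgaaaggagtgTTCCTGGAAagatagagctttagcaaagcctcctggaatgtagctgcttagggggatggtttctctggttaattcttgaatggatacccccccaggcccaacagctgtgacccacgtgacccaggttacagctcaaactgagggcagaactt
The match at bases 99 to 107 differs from the consensus by A6G, counting from 1 at the first base of the motif, and its centre is 22 bases from the summit. The match at bases 19 to 27 reads as TTCCTAGAG on the opposite strand, which is A9G.

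The next pair of sequences comes from lncRNA promoter windows that far-distal peaks of 47.3-fold and 69.0-fold enrichment overlap. They are shown because theirs were the other windows under a narrow far-distal peak with such a match. Gm31135 begins inside the peak at chr8:8484331-8485220, which is 176 kb downstream of the TSS of Efnb2. The bases shown are chr8:8484729-8484978 on the minus strand, with the summit at base 150, and the match (A6T) at bases 79 to 87. The bases of Gm52385 are chr19:57926110-57926359 on the minus strand, and its match at bases 60 to 68 reads as TTCCCAGAA (T5C) on the opposite strand, with the summit outside the stretch shown and the start itself just outside the peak.
Gm31135: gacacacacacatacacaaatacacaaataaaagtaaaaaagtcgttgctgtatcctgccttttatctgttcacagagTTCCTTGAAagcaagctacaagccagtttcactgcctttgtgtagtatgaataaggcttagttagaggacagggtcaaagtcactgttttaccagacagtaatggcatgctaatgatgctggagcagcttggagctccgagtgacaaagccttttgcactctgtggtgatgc
Gm52385: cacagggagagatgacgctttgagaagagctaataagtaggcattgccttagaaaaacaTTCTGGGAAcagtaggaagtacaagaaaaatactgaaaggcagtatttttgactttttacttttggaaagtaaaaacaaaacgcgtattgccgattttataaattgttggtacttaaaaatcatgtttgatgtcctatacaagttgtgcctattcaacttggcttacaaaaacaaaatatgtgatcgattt

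Promoter windows of protein-coding genes under these peaks had a different base composition, and a stretch upstream of Tbc1d1 is shown as the one with the highest fold (43.3) among those that held the summit. Tbc1d1 encodes a GTPase-activating protein of glucose transport. The peak lies 70.2 kb downstream of the TSS that the authors' list gives for the gene. The stretch is chr5:64230107-64230356 on the plus strand, the summit is at base 205, and capitals mark its 27 CpG dinucleotides.
Tbc1d1: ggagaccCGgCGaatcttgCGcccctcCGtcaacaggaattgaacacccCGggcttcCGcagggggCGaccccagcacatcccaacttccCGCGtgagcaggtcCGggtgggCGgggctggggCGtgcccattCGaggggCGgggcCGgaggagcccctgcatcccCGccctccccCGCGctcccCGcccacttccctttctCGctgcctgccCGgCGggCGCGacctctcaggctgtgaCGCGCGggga
Its GC content is 73.6%, against 52.0% in the C330002G04Rik stretch, which holds 3 CpG dinucleotides.

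The label far-distal did not hold for every peak when other annotation was used. The RefSeq promoter table covered the chromosomes of 282 of the 296 peaks, and peaks on chromosome 18 were not analysed for this. A start site of the table lay within 1 kb of the peak centre for 32 of the 282 (11.3%, 95% interval 7.89 to 15.6, exact binomial), against 12.0% of 699 narrow peaks 5 to 50 kb from a listed TSS and 52.3% of all 3797 peaks on these chromosomes. The start belonged to a protein-coding gene within 1 kb for 14 of them (4.96%). A protein-coding start of the table was over 50 kb away for 243 of the 282 (86.2%), against 16.0% of all peaks. The rule largely sets this contrast, since the authors' list and the table share most starts. The listed TSS was within 1 kb of a RefSeq one for 92.0% of 436 listed pairs that could be placed. Intervals on shares of peaks cover counting error only.

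Promoter windows of the table, from 250 bases before to 50 bases after a start, were overlapped by 29 of the 282 peaks (10.3%). The start was that of a protein-coding gene in 13 and of lncRNA genes alone in 16. In 12 of the 13 the gene was one that the authors' list ties to the peak, so that the peak sat at another start of its own listed gene. They were Tbc1d1, Kcnj6 (a G protein-gated potassium channel, 43.3-fold), Ece1 (endothelin-converting enzyme, 35.5-fold), Gtdc1, Retreg1, Dock9 (a Cdc42 activator), Cdyl (a chromodomain corepressor of neuronal genes), Strbp, Sipa1l2, Hip1, Sertad2 and Pak1. Pak1, a kinase downstream of Rac and Cdc42, had a fold of 13.3, the lowest of the 13. The 13 peaks at protein-coding starts had a median fold of 20.2, ranging from 13.3 to 43.3. The 16 peaks at lncRNA starts alone had a median of 27.0, ranging from 15.1 to 269.

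Composition and motifs were counted in 30 of these windows, with 1 window per gene and identical sequences once, beside 26739 windows chosen likewise from the whole table. The 13 protein-coding windows had a median GC content of 74.0% and a median of 33 CpG dinucleotides, against 56.3% and 14 over all 17241 protein-coding windows. The 17 lncRNA windows had 52.0% and 6, against 48.7% and 4 over all 9498 lncRNA windows. The motif TTCNTAGAA, searched on both strands, was in 0 of the 30 windows and in 1.13% of all windows. The match to TTCCTAGAA with at most 1 mismatch was in 3 of 30 (10.0%) and in 8.71% of all windows. The looser palindrome TTCNNNGAA, which STAT proteins also bind and which overlaps both other motifs, was added after the data had been seen, and was in 6 of 30 (20.0%), all of them lncRNA windows, and in 8.50% of all windows. These are matches of letters in windows around starts, and the bases under the other peaks were not searched.

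Some narrow far-distal peaks lay beside microRNA (miRNA) genes. The hairpin of let-7i, a member of the let-7 family that rises as neural progenitors mature, lay inside a 16.3-fold peak, 246 bases from its summit, with Mon2 and Ppm1h as listed genes. The hairpin of miR-193a lay inside a 19.2-fold peak listed for Rab11fip4 and Utp6, and that of miR-193b was 1870 bases from the summit of a 33.2-fold peak listed for Mkl2 and Parn. The hairpins of miR-183, miR-96 and miR-182, a cluster known from sensory neurons, stood between a pair of peaks listed for Nrf1 and Ube2h. Mature sequences are shown from RefSeq, with the seed (bases 2 to 8) in capitals, because the genes listed for these peaks do not include the miRNA genes.
let-7i-5p: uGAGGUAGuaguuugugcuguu
miR-193a-3p: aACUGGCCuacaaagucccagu
miR-193b-3p: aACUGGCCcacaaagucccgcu
miR-96-5p: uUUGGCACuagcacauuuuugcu
miR-182-5p: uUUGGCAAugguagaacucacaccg
The seed ACUGGCC is shared by miR-193a-3p and miR-193b-3p. The seeds of miR-96-5p and miR-182-5p differ in their last base. A hairpin lay within 10 kb of the summit for 9 of 282 narrow far-distal peaks (3.19%, interval 1.47 to 5.97), against 3.95% of 3796 peaks of the series on chromosomes of the miRNA table.

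Fold enrichment over input was a median of 28.25 in narrow far-distal peaks, with quartiles of 21.2 and 37.2 and a range of 12.8 to 269. The median was 21.28 over all peaks, 21.67 over the other 2697 narrow peaks, 23.64 over 710 narrow peaks 5 to 50 kb from a listed TSS and 21.28 over 1741 narrow peaks within 1 kb of one. The quartile ranges overlapped in each of these comparisons. The 49 wide peaks over 50 kb from a TSS had a median of 17.3.

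**Figure D1:**
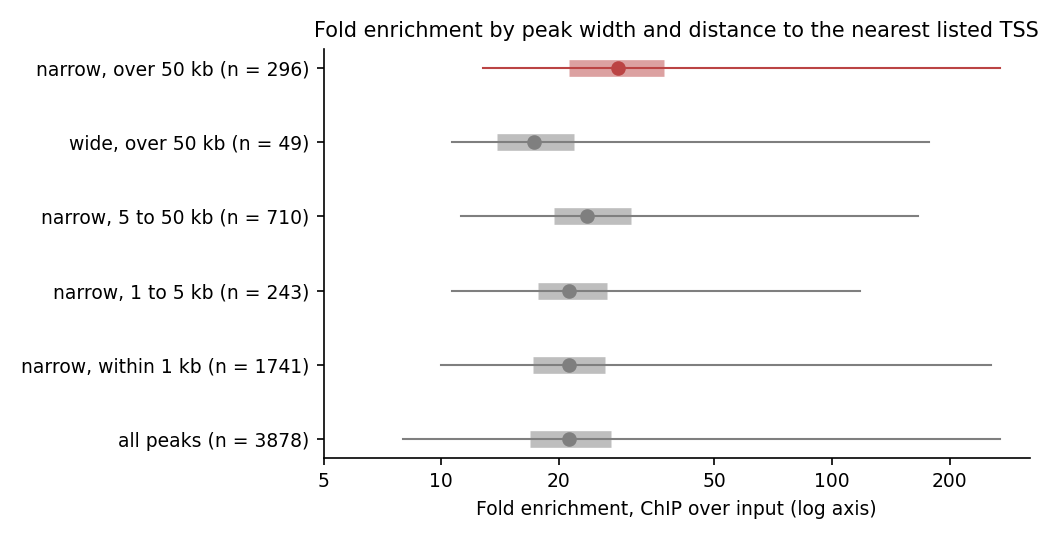
Fold enrichment of pooled ChIP over input (horizontal log axis) in each class of peak by width (narrow is at most 2 kb) and distance to the nearest listed TSS. Dots are medians, thick bars quartiles and thin lines the full range over peaks; the median of narrow peaks over 50 kb away is 28.25 and that of all peaks 21.28.

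The difference was larger in the upper tail than at the median. A fold of at least 50 was reached by 30 of the 296 peaks, or 10.1% (interval 6.94 to 14.2), where 3.15% of all peaks reached it. At least 30-fold was reached by 123 (41.6%), where 17.6% of all peaks did, and at least 100-fold by 10 (3.38%), where 0.619% did. Narrow peaks 5 to 50 kb from a TSS had 6.76% at 50-fold or more, and narrow peaks within 1 kb had 1.78%. Of the 10 peaks of highest fold in the series, 5 were narrow and far-distal. Since the rule and the fold come from the same pooled contrast, nothing is tested by these shares.

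The higher median fold did not go with a higher median of tags. The median was 43 tags in narrow far-distal peaks, against 58 in all peaks and 51 in the other narrow peaks. The 10 narrow far-distal peaks above 100-fold had more, from 80 to 287 tags. The peak caller's score, −10 log10 of its p-value, had a median of 66.3 in narrow far-distal peaks and 71.7 in all peaks. The median width was 1012 bp, which the rule's limit of 2000 bp bounds, against 1281 bp over the other narrow peaks. Many fold values recurred, with 177 distinct values among the 296 peaks.

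Among the far-distal peaks themselves, the narrowest had the highest median fold. The 144 peaks of at most 1000 bp had a median fold of 31.5 and 33 tags. The 107 peaks over 1000 and up to 1500 bp had 27.6 and 49 tags, and the 45 peaks over 1500 bp had 19.0 and 66 tags. Median fold was 25.9 in the 156 peaks 50 to 100 kb from a TSS, 29.98 in the 102 at 100 to 200 kb, 33.5 in the 31 at 200 to 400 kb and 35.5 in the 7 beyond 400 kb, none of which reached 50-fold.

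**Figure D2:**
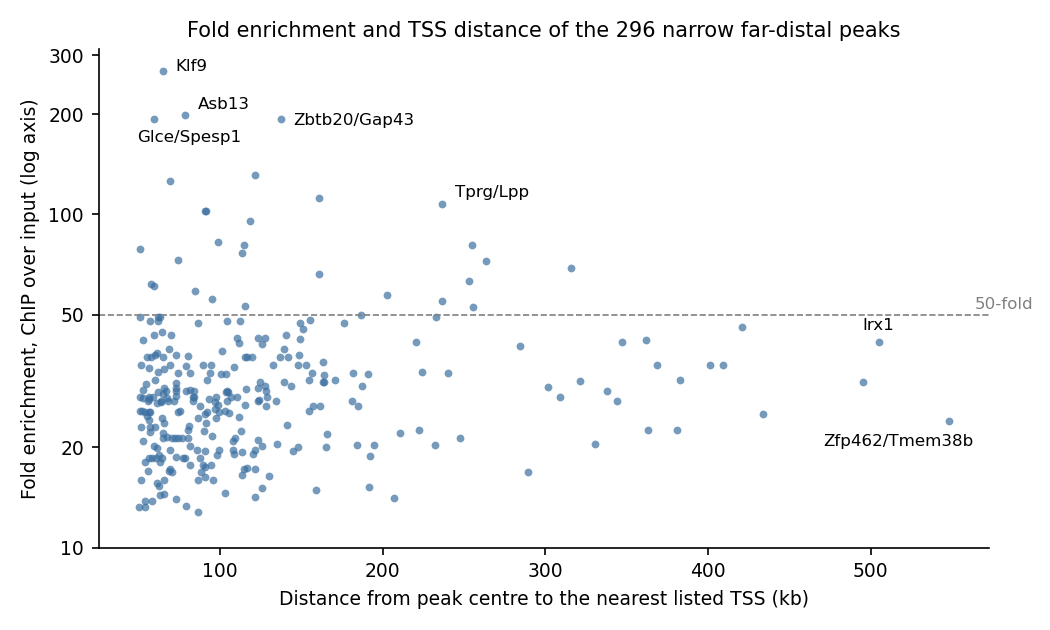
Fold enrichment (vertical log axis) of each of the 296 narrow far-distal peaks against the distance in kb from its centre to the nearest listed TSS. Each dot is a peak, the dashed line is 50-fold, and the 4 highest, at Klf9, Asb13, Zbtb20/Gap43 and Glce/Spesp1, all lie within 200 kb.

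The rule's limits cut through a continuous range. Just inside the distance limit were peaks 50395 bp from Aqp11 (13.3-fold), 50694 bp from Lrig1 (25.7-fold) and 50986 bp from Zfp622 (28.4-fold). Just outside were peaks 49817 bp from Kctd16 (25.1-fold), 49816 bp from Gm6569 (31.5-fold) and 49484 bp from Bhlhe40 (33.2-fold). Just inside the width limit were peaks of 1998 bp near Med13l (26.9-fold), 1993 bp near Tgif1 (16.6-fold) and 1985 bp near Zbtb20 (20.2-fold). Just outside were peaks of 2008 bp near Plcb4 (16.0-fold), 2015 bp near Sox4 and 2015 bp near Auts2 (25.1-fold each).

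The Klf9 peak held 287 tags (exact Poisson interval 255 to 322, counting error only) with a score of 1143 and a fold of 269. The other 5 peaks listed for Klf9 were all lower, at 53.2-fold 46.1 kb upstream, 16.7-fold 6.18 kb upstream, 25.4-fold 0.702 kb downstream of the TSS, 16.0-fold at 11.1 kb downstream and 24.0-fold at 28.6 kb downstream. The peak nearest to the TSS had 148 tags over 3047 bp. The empirical false discovery rate (FDR) in the authors' table was 25% for the peak 65.3 kb upstream. Only the Asb13 peak (6.67%) and the stronger Zbtb20/Gap43 peak (6.90%), both described below, also had an FDR over 5% among the narrow far-distal peaks. The 5 narrow far-distal peaks of highest FDR were the same 5 that had the highest scores, so the very highest FDR values did not mark weak peaks here. Below them, peaks of low score also had an FDR over 1%, such as the Klf8 peak (score 50.15, FDR 2.61%). The 145 peaks with an FDR of at most 1% had a median score of 81.1, against 66.3 for all 296.

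Zbtb20, a BTB zinc finger repressor of the same family as Bcl6 that is needed for hippocampal and cortical neuron identity, had a pair of narrow far-distal peaks. The peak 137 kb upstream, at chr16:42769819-42770910, had 143 tags (interval 121 to 168) and a fold of 193. The peak 126 kb upstream had 94 tags and a fold of 20.2, and the remaining peak listed for the gene, at 32.3 kb upstream and too wide for the rule, had 18.3. The same peaks are listed for Gap43, a growth cone protein, whose TSS is 430 kb and 441 kb away on the other side.

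**Figure D3:**
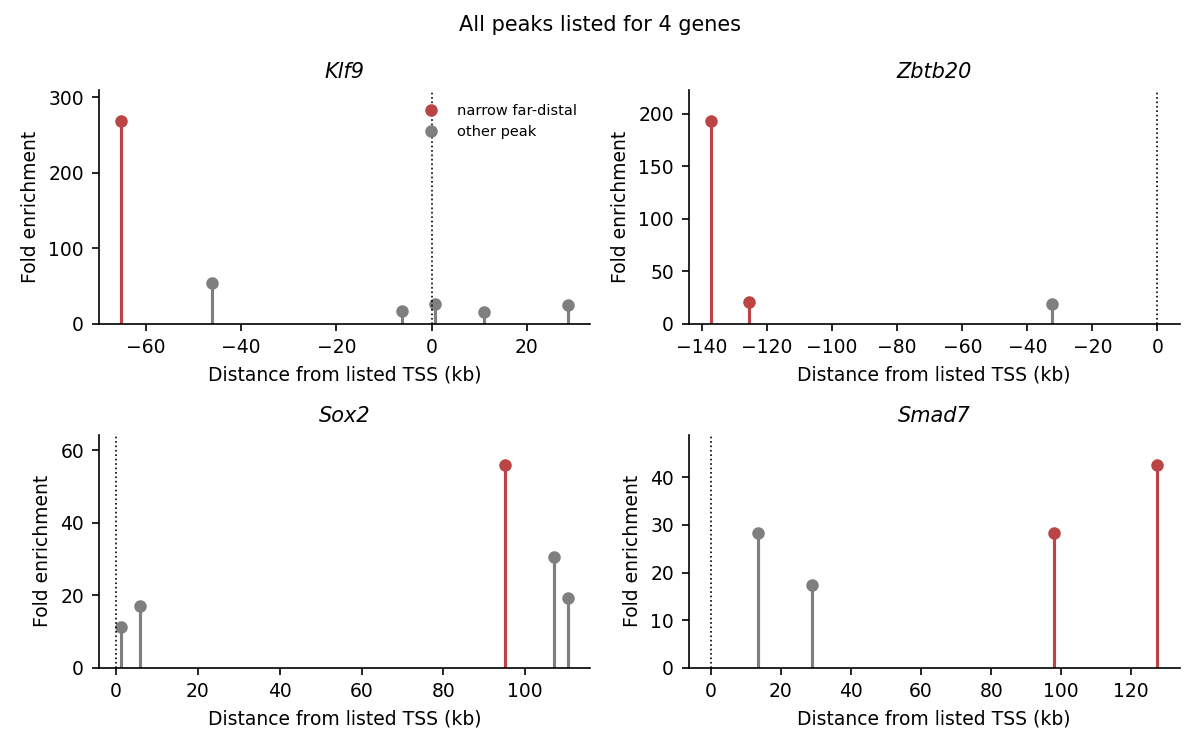
All peaks listed for Klf9, Zbtb20, Sox2 and Smad7 by distance in kb from the listed TSS (dotted line), with fold enrichment as height. Red marks narrow far-distal peaks and grey all others; in each of the 4 genes the highest peak is a red one, 269-fold at Klf9, 193 at Zbtb20, 55.9 at Sox2 and 42.6 at Smad7.

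The rest of the 10 peaks above 100-fold were tied to genes of varied function. The second, with 180 tags and a fold of 198, lay 78.8 kb from Asb13, an ankyrin repeat and SOCS box protein, and inside the lncRNA gene Gm35190. A 193-fold peak with 158 tags lay 59.5 kb downstream of the TSS of Spesp1 and 152 kb upstream of that of Glce, an enzyme of heparan sulphate synthesis. A 131-fold peak lay inside Tafa1, which is not among its listed genes, and a 42.6-fold peak was centred 2154 bp from it. Folds of 126 at Mis18a, a centromere factor, 112 between Ankfn1 and Pctp, 108 between Tprg and Lpp, 102 between Ttc8 and Foxn3, and 102 between Rreb1 and Ly86 completed the group. Rreb1 is a zinc finger factor of Ras signalling.

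Next below 100-fold came 95.7 inside Med27, a Mediator subunit, 82.8 at Fry, 80.9 between Rapgef5 and Ptprn2 and 80.8 between Trim32 and Pappa. Trim32 is a ubiquitin ligase that promotes neuronal differentiation. Lhx8, a LIM homeobox factor of the ventral forebrain, had a single listed peak, 51.2 kb upstream, with 63 tags and a fold of 78.8. Pax2, a paired box factor of the midbrain and hindbrain, had 61.1-fold at 59.5 kb upstream.

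Sox2, a transcription factor of neural progenitors and pluripotent cells, had 1 narrow far-distal peak, 95.1 kb downstream, with 95 tags and 55.9-fold. Its peaks beside the gene had 11.1-fold and 17.0-fold, and wide peaks at 107 and 110 kb downstream had 30.6-fold and 19.2-fold. Pou3f2, a POU factor of upper-layer neurons, had a single listed peak of 41.4-fold at 347 kb upstream with 36 tags. Smad7, an inhibitor of TGF-beta and BMP signalling, had peaks of 28.4-fold and 42.6-fold at 97.8 and 127 kb downstream, against 28.4-fold and 17.5-fold at 13.5 and 29.0 kb. Ccnd1, the cyclin D1 gene, had 35.5-fold at 94.7 kb upstream with 30 tags, against 24.8-fold and 20.0-fold at 2.16 and 10.5 kb downstream. The listed peaks of Shh (31.5-fold), Bcl6 itself (64.8-fold, 35 bp from the TSS) and Tfrc (65.4-fold) were not among the narrow far-distal ones, and each of these genes had a single listed peak.

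The lowest folds belonged to peaks near Plcb4 (12.8), Gm10260 (13.3), Pak1 (13.3), Osbpl1a (13.4) and Nkain1 (13.8), all wider than the median of 1012 bp and with 59 to 110 tags. The most tags, 321, were in a peak at chr17:39847154-39848962 with a fold of only 14.1. Its centre lay inside the ribosomal RNA pseudogene Rn18s-rs5, and its listed genes Gm7148 and Gm9041 were over 207 kb away. The farthest peak was 548 kb from Tmem38b and 574 kb from Zfp462, with 23.9-fold and 28 tags. Those next in distance were 505 kb from Irx1 (41.4-fold) and 495 kb from Med13l (31.5-fold), where the other listed gene is Tbx3.

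The centre was inside a protein-coding gene for 125 of 296 (42.2%, interval 36.5 to 48.1), against 51.4% of narrow peaks 5 to 50 kb from a TSS and 66.4% of all other narrow peaks. The rule limits which genes can hold a narrow far-distal peak, since every listed TSS had to be over 50 kb away, so these shares are not like for like. The gene that held the peak was a listed one for 114 and an unlisted one for 11. A further 37 were inside another kind of gene alone, 34 of these lncRNA genes, and 134 were in no gene of the RefSeq gene table. Median fold was 27.7 inside protein-coding genes and 28.4 outside them. The nearest listed TSS was downstream of the peak for 126 (42.6%) and upstream of it for 170 (57.4%), against 40.6% and 59.1% of all peaks.

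Another peak was within 10 kb for 31 of 296 (10.5%), against 10.7% of narrow peaks within 1 kb of a TSS, 19.3% of those 5 to 50 kb away, 15.1% of all other narrow peaks and 20.0% of all peaks. The median distance to the nearest other peak was 154500 bp for narrow far-distal peaks and 56090 bp for all peaks. These spacings are bound up with the rule, which keeps only peaks over 50 kb from every listed TSS. Over all peaks the median distance to the nearest listed TSS was 527 bp, so most other peaks lie where the rule allows none. The part of the rule in the spacing was not tested. The closest pairs of narrow far-distal peaks were 2154 bp apart in Tafa1, 2500 bp apart at Zmiz1 (35.5-fold and 16.0-fold), 2571 bp apart between Syt2 and Kdm5b, 2799 bp apart between Wasf2 and Ahdc1 and 3818 bp apart between Col18a1 and Pofut2.

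The authors' list tied 494 genes to these peaks, 419 to 1 peak, 70 to 2 and 5 to 3. Arid1b, a subunit of the BAF chromatin remodelling complex, held 3 peaks within its own body, with 47.9-fold, 34.4-fold and 20.4-fold, and Tmem242 is listed for the same peaks. Fancc, a Fanconi anaemia gene next to Ptch1, was listed for peaks of 37.2-fold, 15.2-fold and 14.9-fold, of which the weaker pair lay inside Aopep. Nrf1, a factor for mitochondrial genes, and Ube2h, a ubiquitin-conjugating enzyme, shared peaks of 41.2-fold, 26.8-fold and 15.1-fold on either side of the miR-183 cluster.

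A listed gene had another peak within 1 kb of its TSS for 92 of the 296 peaks (31.1%, interval 25.9 to 36.7), against 33.7% of narrow peaks 5 to 50 kb from a TSS, 11.9% of all other narrow peaks and 15.4% of all peaks. The shares over all other narrow peaks and over all peaks are low partly by construction. Promoter peaks did not count for themselves, and narrow peaks within 1 kb of a TSS had 1.44%. Also, 93.9% of narrow far-distal peaks had 2 listed genes, against 41.5% of all other narrow peaks. This gave 100 pairs of a far peak and a promoter peak in 84 genes. The far peak had the higher fold in 71 pairs, the promoter peak in 28, and 1 pair was equal, with a median fold of 29.3 for far peaks and 20.8 for promoter peaks. Tags went the other way: the far peak had more in 25 pairs and the promoter peak in 72, with 3 equal and medians of 42 tags in far peaks and 64.5 in promoter peaks. Promoter peaks in these pairs had a median width of 1538.5 bp.

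**Figure D4:**
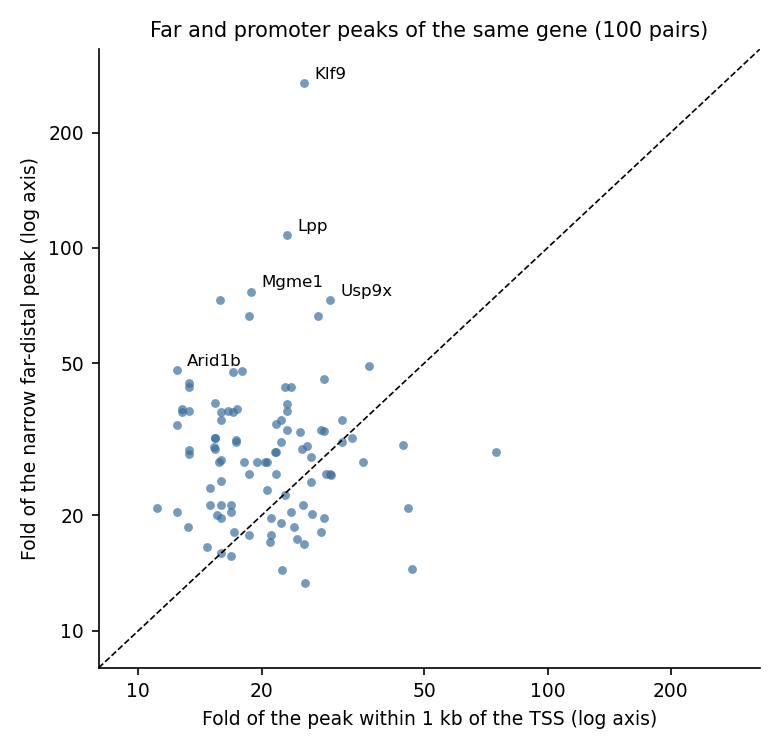
Fold enrichment of the narrow far-distal peak (vertical log axis) against that of the peak within 1 kb of the TSS of the same gene (horizontal log axis). Each dot is 1 of 100 pairs, the dashed line marks equal folds, and 71 dots lie above it.

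Klf9 had the widest gap in fold, 269 far and 25.4 at the promoter. Lpp, a focal adhesion protein, had 108 at 657 kb and 23.1 at its promoter. Mgme1, a mitochondrial exonuclease, had 76.8 and 18.9. Usp9x and Ddx3x, neighbouring X-linked genes for a deubiquitinase and an RNA helicase, share a far peak of 72.9-fold, against 29.4 and 15.8 at their promoters. Further examples with a higher far peak were Arid1b (47.9 and 12.4), Efnb2 (47.3 and 17.0), Tead1 (44.4 and 13.3) and Ptch1 (37.2 and 17.0). Zmiz1 had 35.5 and 16.0 at its far peaks and 16.0 at its promoter. Among the 28 pairs in the opposite direction, the promoter peaks of highest fold were at 9230009I02Rik (29.3 far and 74.9 at the promoter), Nhlrc3 (14.5 and 46.5) and Slc29a4 (20.9 and 45.6). The list genes Gli2 (17.3 and 24.4), Igf1r (20.5 and 23.6), Plxna1 (19.7 and 28.4), Sox9 (31.9 and 33.2) and Smad6 (19.7 and 17.7 far, 21.1 at the promoter) were in this direction too.

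Lists of genes for pathways, complexes and cell types were counted against the 461 of 21900 protein-coding genes (2.11%) that the authors' list ties to a narrow far-distal peak. The lists were drawn up with earlier results of these data known, so the counts are no independent evidence. Genes tied to such a peak lay in gene-poor surroundings: the median span between their neighbouring protein-coding genes was 362 kb, against 75.7 kb for genes with any peak and 77.8 kb for all. The rule itself favours wide spans, since it keeps only peaks with no listed TSS within 50 kb. The 2.11% is not matched for span. The span of each list is given with its count, and its part in the count was not tested.

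**Figure D5:**
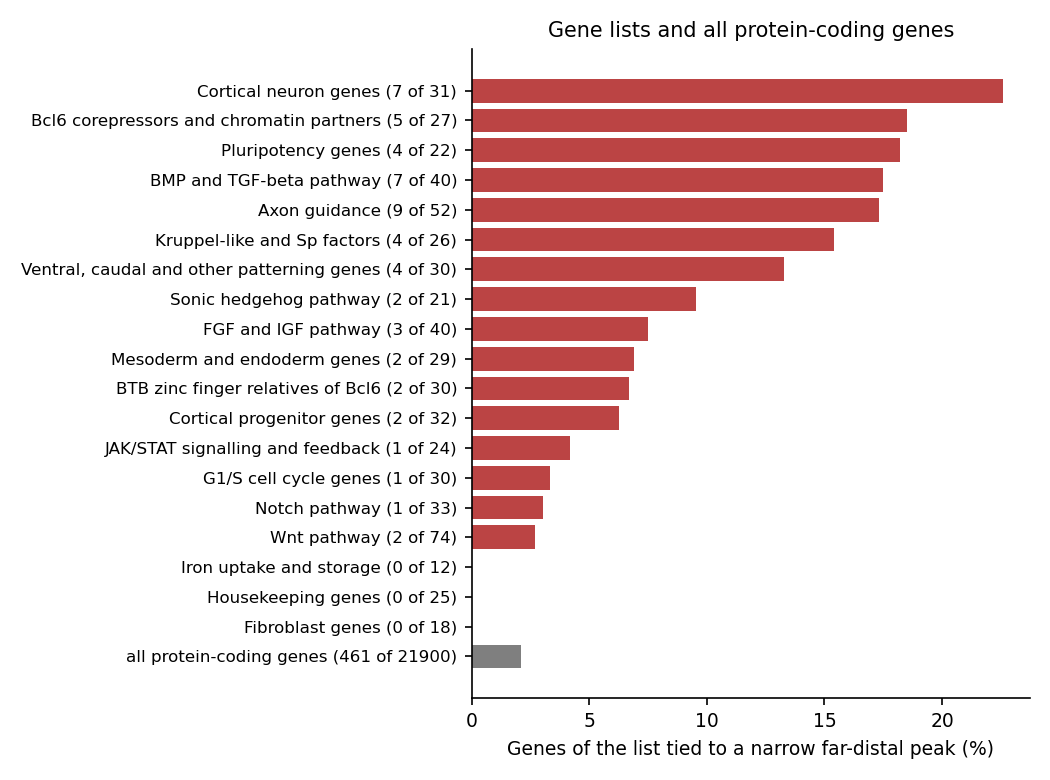
Percent of the genes in each list tied to at least 1 narrow far-distal peak (horizontal axis), with counts beside the names. Red bars are lists and the grey bar is all protein-coding genes (2.11%); bars run up to 22.6% for cortical neuron genes, and 3 lists are at 0.

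Genes of cortical neurons had the highest share, 7 of 31 (22.6%), with a median span of 740 kb. Besides Zbtb20 and Pou3f2 these were Nfia, a nuclear factor I gene of glia and neurons, with 52.6-fold at 255 kb upstream, Elavl4, an RNA-binding protein of neurons (29.6-fold), Sox5 (28.4-fold), Foxp1 (18.6-fold) and Cux2, a homeobox factor of upper layers (17.7-fold). The peak of Sox5 was 783 kb from it and 56.6 kb from Bcat1. The 7 became 4 with the gene of the nearest TSS alone, and also 4 without peaks under the median score of all peaks. Cortical progenitor genes had 2 of 32 (6.25%, span 291 kb), Sox2 and Sox9, and Sox2 alone remained without peaks under the median score. Of the cortical neuron genes with any peak, 7 of 13 (53.8%) had a far-distal one, and of the cortical progenitor genes 2 of 9, where 10.5% of all protein-coding genes with a peak did. By this count, patterning genes of other regions (4 of 7, 57.1%) and axon guidance genes (9 of 16, 56.2%) were slightly higher than cortical neuron genes. All other lists were lower.

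Axon guidance genes had 9 of 52 (17.3%, span 504 kb). The ligand genes were Efnb2, an ephrin (47.3-fold), and Sema6a (27.8-fold). The receptors were Plxnc1 (37.8-fold), Ephb3 (37.4-fold), Epha4 (33.7-fold), Robo1 (25.3-fold) and Plxna1 (19.7-fold). Gap43 and the adhesion molecule Cntn2 (23.1-fold) completed the list. With nearest genes alone the 9 became 4, and without peaks under the median score 6. The peak of Epha4 was 457 kb from it and is also listed for Pax3, a paired box factor of the dorsal neural tube.

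The BMP and TGF-beta pathway had 7 of 40 genes (17.5%, span 204 kb). The ligand Bmp7 had 33.5-fold at 182 kb and 18.1-fold at 326 kb downstream, and the farther peak was 63.1 kb from Tfap2c. The signal-transducing Smad2 had 37.4-fold and 29.6-fold and Smad3 had 19.7-fold and 17.7-fold, and the peaks of Smad3 are those listed for the inhibitor Smad6. The inhibitor Smad7 is described above. Ski, a corepressor of Smad proteins, had 18.6-fold and Tgif1, a homeobox repressor of the pathway, 16.6-fold. Without peaks under the median score the 7 became 2, and with nearest genes alone 6.

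Partners of Bcl6 in repression had 5 of 27 genes (18.5%, span 187 kb). Among them were Zmiz1, a cofactor of the PIAS family, Bcor (30.1-fold at 123 kb), the corepressor that binds the BTB domain of Bcl6, Ctbp2 (24.4-fold at 97.7 kb) and Rere (22.3-fold at 90.3 kb). The 5 became 3 with nearest genes alone and 2 without peaks under the median score. Krüppel-like and Sp factors had 4 of 26 (15.4%, span 236 kb), with Klf9, Klf3 (43.3-fold and 22.6-fold), Klf8 (29.6-fold) and Klf4 (27.9-fold, 56.7 kb from its TSS). With nearest genes alone these 4 became 2. Both peaks of Klf3 lay nearer to Tbc1d1, and the stronger is the one whose start is shown above. BTB zinc finger genes had 2 of 30 (6.67%, span 69.3 kb), Zbtb20 and Zbtb7c (29.6-fold).

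Pluripotency genes had 4 of 22 (18.2%, span 122 kb), Sox2, Tbx3 (31.5-fold), Esrrb (29.3-fold, 105 kb downstream of its TSS) and Klf4. Patterning genes of other regions had 4 of 30 (13.3%, span 257 kb), among them Lhx8, Pax2 and Dlx2 (14.4-fold), and 2 without peaks under the median score. Mesoderm and endoderm genes had 2 of 29 (6.90%, span 177 kb), Pax3 and Gata6 (33.2-fold), and 1 without those peaks.

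The remaining signalling pathways and the G1/S cell cycle list had 1 to 3 genes each, and whether Bcl6 represses them in these cells was not tested. Notch had 1 of 33 (3.03%, span 79.9 kb), Mib1, a ubiquitin ligase of Notch ligands, through the 33.2-fold peak that lies nearer to Gata6. Wnt had 2 of 74 (2.70%, span 148 kb), the effector Tcf7l2 (35.5-fold) and the receptor Fzd3 (25.8-fold). Sonic hedgehog had 2 of 21 (9.52%, span 233 kb), the receptor Ptch1 (37.2-fold) and the effector Gli2 (17.3-fold). FGF and IGF had 3 of 40 (7.5%, span 201 kb), the ligand Igf1 (21.6-fold), its receptor Igf1r (20.5-fold) and the binding protein Igfbp5 (24.8-fold and 21.3-fold). G1/S cell cycle genes had 1 of 30 (3.33%, span 90.3 kb), Ccnd1, and JAK/STAT genes had 1 of 24 (4.17%, span 67.3 kb), Jak1 (19.0-fold). With nearest genes alone, Notch, Sonic hedgehog and JAK/STAT were at 0, and Wnt and FGF and IGF at 1 each. Without peaks under the median score, Notch and G1/S were at 0, and Wnt, Sonic hedgehog, and FGF and IGF at 1 each.

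Housekeeping genes had 0 of 25, with a median span of 33.0 kb, where 2.11% of all protein-coding genes had a narrow far-distal peak. A peak of some kind was listed for 13 of the 25, and 10.5% of all protein-coding genes with a peak had a far-distal one. Fibroblast genes had 0 of 18 (span 199 kb) and iron uptake and storage genes 0 of 12 (span 141 kb). In lists this small, 0 genes is near the share over all protein-coding genes and marks no absence particular to them.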

How the data were processed

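The authors aligned reads to mm10 with Bowtie, per the submitters' processing notes, and ran the MACS 1.4.2 peak caller, per the file headers, comparing pooled ChIP with pooled input (p-value cutoff 1e-05, at most 1 tag per position, fragment size 188 bp). The tag counts per peak are raw counts of pooled ChIP tags as deposited. The fold is the ratio of ChIP over local input background in the authors' table. The score deposited by the authors is −10 log10 of the caller's p-value, identified by its column order and its minimum of 50.03, and the FDR was deposited as a percent. The gene list was made with GREAT 3.0.0, per the file headers, which extends a gene's domain up to 1000 kb.

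Lists and peaks were joined by peak number. Symbols matched RefSeq (GRCm38.p6) for 97.7% of 574 listed pairs, and the implied TSS lay within 1 kb of a RefSeq TSS for 92.0% of 436 pairs that could be placed. The members and gene lists were chosen with earlier results of these data known. No test was run: shares have exact 95% binomial intervals and tag counts exact Poisson ones. Motif search, rule and intervals were tested on simulated data. Python 3.11.15, pandas 2.3.3, numpy 2.4.6 and scipy 1.17.1 were used.

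Named were the 15 peaks of highest fold, the 5 of most tags, of highest score and of lowest fold, the peaks at the rule's limits, the farthest 3, the closest 5 pairs, genes with several peaks, the 3 strongest of each list, and 12 genes fixed by name; the genes at promoter windows, miRNAs, pairs with promoter peaks and other list members were added after their values were seen. Alternatives were other limits of distance, width, score, FDR and fold, other windows, RefSeq gene ends, no chromosome Y or unplaced sequence, nearest genes alone, and, added after the data had been seen, no peaks within 1 kb of a RefSeq start. Promoter and miRNA tables were used without chromosome 18. Some genes of the lists are counted but not reported by name here.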

Additional observations from a re-analysis of the deposited data

How the results depend on the processing

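No paired analysis was possible because the 3 libraries of each kind were pooled before peaks were called. The planned search for the Bcl6 motif around summits was not run, since no genome sequence was used here. In place of 296 peaks there were 559 at a limit of 20 kb, 140 at 100 kb, 38 at 200 kb, 144 at a width of 1000 bp, 129 at a score of at least the median, 145 at an FDR of at most 1% and 172 when both ends of every RefSeq protein-coding gene had to be over 50 kb away.

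The median fold of 28.25 was 26 at 20 kb, 31.1 at 100 kb, 33.6 at 200 kb, 31.5 at 1000 bp, 37.2 at the median score and 30.4 at an FDR of 1%. Median tags were 33 at 1000 bp, 39 at 1500 bp, 46 with no width limit, 56 at the median score and 46 at an FDR of 1%. The median score was 80.0 at 200 kb, 59.8 at 1000 bp, 100.3 at the median score and 81.1 at an FDR of 1%.

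The 10.1% of peaks at 50-fold or more were 21.1% at 200 kb, 23.3% at the median score and 4.83% at an FDR of 1%, and 41.6% and 3.38% for 30-fold and 100-fold. The FDR limit of 1% left out all 10 peaks of at least 100-fold, whose FDR ran from 1.79% to 25%. The median fold exceeded that of other narrow peaks by 6.57 and that of narrow peaks 5 to 50 kb away by 4.61. Another peak was within 5 kb for 5.74% and within 50 kb for 22.6%. The 53 list genes fell to 31 with nearest genes alone and to 27 without peaks under the median score. Removing peaks within 1 kb of a RefSeq start left 264, with a median fold of 28.4. The causes were not tested. Pooling, and a median of 43 tags per peak, limit the precision.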
